A study of Mus musculus with 12 samples.

Results

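The interstitial matrix and fibroblast genes are 41 genes that encode collagens, proteoglycans, glycoproteins and processing enzymes of connective tissue, with 3 genes used as marks of fibroblasts. They were taken by gene symbol: a probe set counted where its only symbol in the platform annotation was one of the 41. Of the 41 members, 37 had at least 1 such probe set, out of 18193 genes with a single symbol on the arrays, and 36 could be tested. They were compared between 3 RNAs of R1 mouse embryonic stem cells differentiated into embryoid bodies (D1 to D3) and 3 RNAs of undifferentiated R1 cells (U1 to U3). R1 is a line derived from the inner cell mass, and embryoid bodies are aggregates in which such cells begin to specialise. Both groups share the line and, as the labels are worded, D-MEM with 10% serum and 5 days in bacterial Petri dishes, so the labels do not say how the cultures differed. The undifferentiated RNAs carry an estimated purity of 95%, judged by eye, and the labels say neither what the remainder was nor whether feeder cells were used. Each RNA was hybridised once to Affymetrix MOE430A (array A) and once to MOE430B (array B). Whether the 3 RNAs of each state are separate cultures is not stated, so every p-value here reflects variation among these RNAs, which could be technical only.

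Interstitial matrix is the network between cells of connective tissue. Fibrillar collagens are made as procollagens, modified by hydroxylases inside the cell, trimmed outside it and joined by lysyl oxidases, while small leucine-rich proteoglycans, fibulins and fibronectin bind to the fibres. Fibroblasts and other mesenchymal cells are the main source of these transcripts, and mouse embryonic fibroblasts are a common feeder layer for embryonic stem cells. Endoderm of the early embryo makes a different matrix, the basement membrane, with collagen IV and laminins.

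Part of these genes were lower in differentiated RNAs and none passed as higher. Of 53 member probe sets tested on array A, 16 fell and 0 rose at a limma adjusted p under 0.05, against 2.87% of all array A probe sets called in either direction, 1.56% that fell and 1.31% that rose. These 16 belong to 11 genes: the collagens Col1a1, Col1a2, Col5a1 and Col18a1, the proteoglycan Bgn, the glycoproteins Fbln2, Fn1, Thbs1 and Mgp, and the collagen-processing genes Pcolce and Lox. All 16 were at least 2-fold lower, and their groups did not overlap, which the test nearly requires at this size. Called or not, the 3 differentiated values lay below the 3 undifferentiated values in 27 of the 53, against 10.1% of all array A probe sets. None of the 3 fibroblast marks is among the 11. In bulk RNA fewer cells of a type and less RNA per cell cannot be told apart. The other 25 members tested had no probe set past the threshold. On array B, 0 of 13 member probe sets passed, and 0 had an unadjusted p under 0.05. There only 0.0197% of all probe sets were called, 0.00983% in each direction, and 5.24% had an unadjusted p under 0.05.

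The region just upstream of the start site is shown for 5 of the 11 genes that fell, those with exactly 1 window in the RefSeq promoters. They are 1 from each of the groups proteoglycans, fibulins and procollagen processing and 2 from the fibrillar collagens. Each window shown is the 250 bases before the start that RefSeq gives on GRCm38.p6, written 5' to 3' on the gene's strand. Capitals mark a GC box (GGGCGG, or CCGCCC from the other strand) or a CCAAT box (CCAAT, or ATTGG from the other strand), the only motifs capitalised, and no capitals mark other letters.
Bgn, chrX:73483351-73483600, plus strand: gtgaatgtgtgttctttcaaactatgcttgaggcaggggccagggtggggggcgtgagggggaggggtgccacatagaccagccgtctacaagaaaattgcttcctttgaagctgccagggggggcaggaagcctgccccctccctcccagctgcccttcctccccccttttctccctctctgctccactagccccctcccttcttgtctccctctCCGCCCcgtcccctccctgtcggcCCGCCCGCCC
Col1a2, chr6:4505368-4505617, plus strand: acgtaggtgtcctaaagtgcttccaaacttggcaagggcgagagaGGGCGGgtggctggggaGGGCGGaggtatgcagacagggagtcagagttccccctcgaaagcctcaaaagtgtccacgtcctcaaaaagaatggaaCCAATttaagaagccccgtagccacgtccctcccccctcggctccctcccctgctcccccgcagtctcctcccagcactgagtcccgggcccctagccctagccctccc
Col5a1, chr2:27886175-27886424, plus strand: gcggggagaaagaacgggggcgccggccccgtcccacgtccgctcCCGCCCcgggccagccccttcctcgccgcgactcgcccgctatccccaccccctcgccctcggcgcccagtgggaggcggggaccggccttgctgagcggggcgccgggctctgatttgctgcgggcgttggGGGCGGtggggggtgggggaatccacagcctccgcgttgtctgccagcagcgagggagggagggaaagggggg
Fbln2, chr6:91212514-91212763, plus strand: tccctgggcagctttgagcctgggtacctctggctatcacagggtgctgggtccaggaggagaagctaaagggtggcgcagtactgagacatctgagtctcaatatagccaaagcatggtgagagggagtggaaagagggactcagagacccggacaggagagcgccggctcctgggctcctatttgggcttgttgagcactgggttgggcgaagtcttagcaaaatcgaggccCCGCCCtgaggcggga
Pcolce, chr5:137611405-137611654, minus strand: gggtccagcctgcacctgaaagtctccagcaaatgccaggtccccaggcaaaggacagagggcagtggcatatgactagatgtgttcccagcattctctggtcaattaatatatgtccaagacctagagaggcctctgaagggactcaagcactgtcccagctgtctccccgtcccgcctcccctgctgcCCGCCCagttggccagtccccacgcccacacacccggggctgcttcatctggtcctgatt

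A GC box, the letters bound by Sp-family factors, occurs in each of the 5 windows shown: 3 times in Bgn, 2 times each in Col1a2 and Col5a1, and once each in Fbln2 and Pcolce. In Bgn the boxes begin 34, 10 and 6 bases before the start, and the last 2 overlap each other. A CCAAT box occurs once, in Col1a2, 109 bases before the start. Of the 11 genes that fell 6 have windows, 7 in all, and the 2 not shown are those of Col18a1. One of these holds GC boxes and a CCAAT box, and the other holds no GC box and 2 TEAD motifs. The GC content of the windows was 64.4% in Bgn, 62.0% in Col1a2, 76.4% in Col5a1, and 58.8% in both Fbln2 and Pcolce. Of the 41 members, 27 have windows in the RefSeq promoters, 36 between them, and 22 of the 36 hold a GC box, which is 61.1%, against 32.7% of all 32851 windows. A CCAAT box was in 7 of the 36, which is 19.4%, against 33.8% of all windows. On both strands 4 more motifs were searched: TATAAA, the TEAD letters GGAATG, the AP-1 letters TGANTCA and the CArG box. They were in 22.2%, 11.1%, 2.78% and 0% of the member windows, against 12.4%, 12.6%, 6.75% and 1.47% of all windows. These matches describe the letters only, and a missing match says only that the letters are not in the window.

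Type I collagen is the main fibre of most connective tissues. Probe set 1423669_at of Col1a1, which encodes its alpha 1 chain, had log2 signals of 5.83, 5.00 and 5.00 in D1 to D3, against 9.84, 10.67 and 10.59 in U1 to U3. Here 5.00 is the floor, since scaled signals under 32 were raised to 32, so 2 of the differentiated arrays hold only an upper limit. Differentiated RNAs averaged 5.28 ± 0.48 and undifferentiated RNAs 10.37 ± 0.46 (SD over 3 RNAs), giving a difference of -5.09 ± 0.39 (SE) or 34.0-fold lower (limma adjusted p = 0.000248). This probe set passed the limit on mean signal only through the undifferentiated RNAs, so it had to differ to be tested, and the floor sets the size of its fold: the difference was -5.66 with a floor of 16 and -4.37 with a floor of 64. With no limit on mean signal its adjusted p was 0.0249. It alone puts Col1a1 among the genes that fell. Probe set 1455494_at of Col1a1 had 8.04, 7.83 and 7.56 in differentiated RNAs, against 7.87, 8.78 and 8.79 in undifferentiated RNAs, so U1 lay within the differentiated values. Its difference was -0.67, with a 95% interval of -1.43 to 0.09 (limma adjusted p = 0.397). Because this probe set is the brighter of the pair on average over all 6 arrays, a count with 1 probe set per gene leaves Col1a1 out of the genes that fell. In undifferentiated RNAs alone 1423669_at was the brighter, with a mean of 10.37 against 8.48.

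Col1a2, the alpha 2 chain of type I collagen, had 8.93, 8.80 and 8.31 in differentiated RNAs, against 10.29, 10.18 and 10.29 in undifferentiated RNAs on probe set 1450857_a_at. It fell by 1.57 on the log2 scale (SE 0.21), or 2.96-fold (limma adjusted p = 0.00313). Its dimmer probe set 1423110_at differed by -1.06 ± 0.30 (SE, adjusted p = 0.0939), again with the differentiated values all below. Col5a1, a chain of type V collagen that limits fibril width, had 9.0, 8.65 and 8.31 in differentiated RNAs, against 9.98, 9.92 and 10.07 in undifferentiated RNAs on probe set 1416740_at. It fell by 1.34 on the log2 scale (SE 0.22, limma adjusted p = 0.00811), and its other tested probe set 1434479_at differed by -0.86 (adjusted p = 0.074). On average over all 6 arrays 1434479_at was the brighter, but not in undifferentiated RNAs alone (mean 9.81 against 9.99). A count with 1 probe set per gene therefore leaves Col5a1 out of the genes that fell, as it does Col1a1. D3 was the lowest RNA on all 4 of these probe sets of Col1a2 and Col5a1. Col3a1, the chain of type III collagen, was 8.14, 5.00 and 6.27 in differentiated RNAs, against 8.17, 8.24 and 8.24 in undifferentiated RNAs. D1 lay next to U1 and D2 was at the floor, and the difference of -1.75 ± 0.68 (SE) did not pass (adjusted p = 0.232). Without D1 the difference was -2.58 and did pass (adjusted p = 0.0259), the only pass of Col3a1 among 18 alternative settings. Col5a2, the second chain of type V collagen, differed by -0.91 (adjusted p = 0.302). All 8 tested probe sets of the 5 fibrillar collagen genes were below 0, against 48.4% of all array A probe sets. Their median was -1.20, and 3 of the 8 fell.

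**Figure D1:**
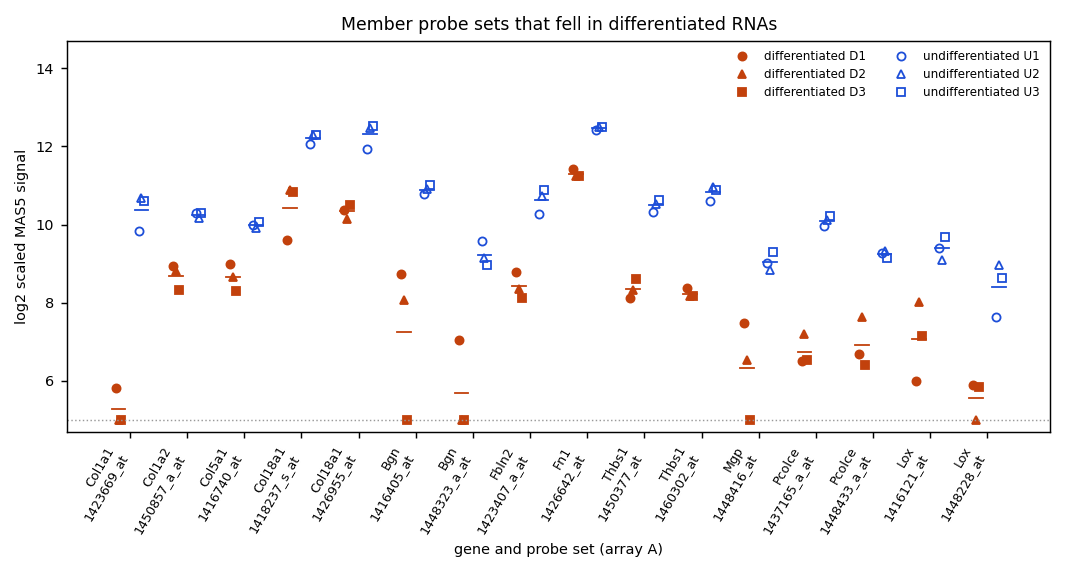
Log2 scaled MAS5 signal (vertical axis) of the 16 member probe sets that fell, by RNA, with filled orange symbols for differentiated D1 to D3 and open blue symbols for undifferentiated U1 to U3. Bars are group means and the dotted line is the floor of 5. In each probe set all 3 differentiated symbols lie below all 3 undifferentiated ones, and 5 probe sets have differentiated arrays at the floor. Levels of different probe sets are not comparable.

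Col18a1 encodes a collagen of basement membranes and vessels whose end fragment is endostatin. Both of its probe sets fell. On 1426955_at it had 10.38, 10.13 and 10.51 in differentiated RNAs, against 11.93, 12.47 and 12.53 in undifferentiated RNAs, a difference of -1.97 ± 0.18 (SE) or 3.92-fold lower (limma adjusted p = 0.000459). On 1418237_s_at it had 9.59, 10.88 and 10.83 in differentiated RNAs, against 12.05, 12.29 and 12.28 in undifferentiated RNAs (difference -1.78 ± 0.29, adjusted p = 0.00784), with D1 the lowest. The beaded-filament collagens of type VI did not pass. Col6a1 had 8.82, 8.09 and 5.29 in differentiated RNAs, against 8.84, 8.81 and 9.03 in undifferentiated RNAs. D1 lay among the undifferentiated values and D3 far below them, and the difference was -1.49 ± 0.71 (SE, adjusted p = 0.349), or -0.44 without D3. Col6a2 differed by -0.69 on 1 probe set and -1.11 on the other (adjusted p = 0.167 and 0.204), and Col6a3 by -0.73 (adjusted p = 0.241).

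Among the proteoglycans 1 of 5 members fell. Bgn encodes biglycan, a small leucine-rich proteoglycan that binds collagen fibrils. On probe set 1416405_at it had 8.73, 8.06 and 5.00 in differentiated RNAs, against 10.77, 10.90 and 11.01 in undifferentiated RNAs. The undifferentiated values lay close together while D3 was at the floor, and Bgn fell by 3.63 on the log2 scale (SE 0.73), or 12.4-fold (limma adjusted p = 0.0243). Without D3 the difference was -2.50. On 1448323_a_at it had 7.06, 5.00 and 5.00 in differentiated RNAs, against 9.59, 9.14 and 8.96 in undifferentiated RNAs (difference -3.55 ± 0.57, adjusted p = 0.00761). Another probe set of Bgn, 1437889_x_at, had 7.50, 5.00 and 5.00 in differentiated RNAs, against 7.26, 8.89 and 8.79 in undifferentiated RNAs, and did not pass (adjusted p = 0.116). The related proteoglycans that also bind collagen did not pass. Decorin (Dcn) differed by 0.74 on array B (adjusted p = 0.841), lumican (Lum) by 0.84 (adjusted p = 0.535) and asporin (Aspn) by -0.29 (adjusted p = 0.892). The array A probe set of Dcn was too dim to be tested. It had 5.81, 5.00 and 5.00 in differentiated RNAs, against 5.00, 5.64 and 5.33 in undifferentiated RNAs. For versican (Vcan), a large hyaluronan-binding proteoglycan, the 6 tested probe sets differed by -1.28 to 0.85 and disagreed in sign. Its brightest one on array A differed by -0.98 (adjusted p = 0.21).

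Fibrillins build microfibrils and fibulins link them to elastin and basement membranes. Fbln2 was the 1 member of this group that fell. It had 8.80, 8.36 and 8.13 in differentiated RNAs, against 10.27, 10.72 and 10.90 in undifferentiated RNAs, a difference of -2.20 ± 0.23 (SE) or 4.60-fold lower (limma adjusted p = 0.00085). Its relative Fbln1 differed by -0.32 (adjusted p = 0.501) and 0.03 on array A and by 0.34 on array B. Fbln5, which helps assemble elastic fibres, had 6.92, 5.00 and 5.00 in differentiated RNAs, against 7.33, 7.13 and 6.51 in undifferentiated RNAs. D1 overlapped the undifferentiated values, and the difference was -1.35 (adjusted p = 0.407). Fbn2, the fibrillin of developing tissue, differed by 0.38 on array B (adjusted p = 0.893). Its array A probe set was too dim to be tested, at 7.90, 5.72 and 6.53 in differentiated RNAs, against 5.00, 5.46 and 5.00 in undifferentiated RNAs. No probe set with the single symbol Fbn1, Efemp2 or Spp1 was used here, and the 2 probe sets of Loxl2 carry a second symbol and were left out.

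Of the adhesive and matricellular proteins, 3 of 8 tested members fell. Thbs1, thrombospondin 1, is a secreted glycoprotein that activates latent TGF-beta and regulates adhesion. On probe set 1460302_at it had 8.37, 8.17 and 8.16 in differentiated RNAs, against 10.61, 10.97 and 10.89 in undifferentiated RNAs, a difference of -2.59 ± 0.19 (SE) or 6.02-fold lower. Its limma adjusted p of 0.000186 was the lowest of the members. The other probe set, 1450377_at, had 8.13, 8.34 and 8.62 in differentiated RNAs, against 10.32, 10.53 and 10.62 in undifferentiated RNAs (difference -2.13 ± 0.20, adjusted p = 0.000519). The paralog Thbs2 did not pass. Its brightest probe set on array A, 1450663_at, had 8.00, 7.60 and 7.91 in differentiated RNAs, against 5.00, 7.30 and 5.70 in undifferentiated RNAs. All 3 differentiated values were above, and the difference of 1.84 ± 0.62 (SE) did not pass (adjusted p = 0.169). Its other probe sets differed by 0.00 on array A and -1.47 on array B.

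Fn1, fibronectin, is the adhesive glycoprotein on which many cells lay down collagen. On its brighter probe set 1426642_at it had 11.42, 11.24 and 11.23 in differentiated RNAs, against 12.41, 12.50 and 12.49 in undifferentiated RNAs. It fell by 1.17 on the log2 scale (SE 0.12), or 2.25-fold (limma adjusted p = 0.000641), with both groups tight. Its dimmer probe set 1437218_at differed by -1.95 ± 0.53 (SE, adjusted p = 0.083). That probe set passed the limit on mean signal only through the undifferentiated RNAs, so it had to differ to be tested. Mgp, matrix Gla protein, an inhibitor of calcification, had 7.48, 6.53 and 5.00 in differentiated RNAs, against 9.01, 8.84 and 9.30 in undifferentiated RNAs. It fell by 2.71 on the log2 scale (SE 0.56), or 6.55-fold (limma adjusted p = 0.0282), and D3 was again at the floor. Tnc, tenascin C, an anti-adhesive protein of embryonic and wounded tissue, had 5.00, 6.77 and 7.28 in differentiated RNAs, against 8.47, 8.79 and 8.65 in undifferentiated RNAs. The groups did not overlap, and the difference of -2.29 ± 0.56 (SE) just missed the threshold (adjusted p = 0.0573). Without D1 it was -1.61 and passed (adjusted p = 0.0315), as it did without D3 at -2.75 (adjusted p = 0.046) and with the replicate number as a block (adjusted p = 0.0294). Tnc passed in only 4 of 18 alternative settings, and not without D2, U1, U2 or U3. Islr, a secreted leucine-rich protein of mesenchymal cells, had 8.16, 7.65 and 6.88 in differentiated RNAs, against 6.96, 5.00 and 6.35 in undifferentiated RNAs (difference 1.46, adjusted p = 0.288). Tgfbi, a collagen-binding protein, differed by -0.21, -0.23 and 0.61 on 3 probe sets. Fstl1, a secreted follistatin-like glycoprotein, differed by -0.13 and 0.34. The probe set of Postn, periostin, was too dim to be tested, with 5.61 in D1 and 6.33 in U3 and the other 4 arrays at the floor.

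**Figure D2:**
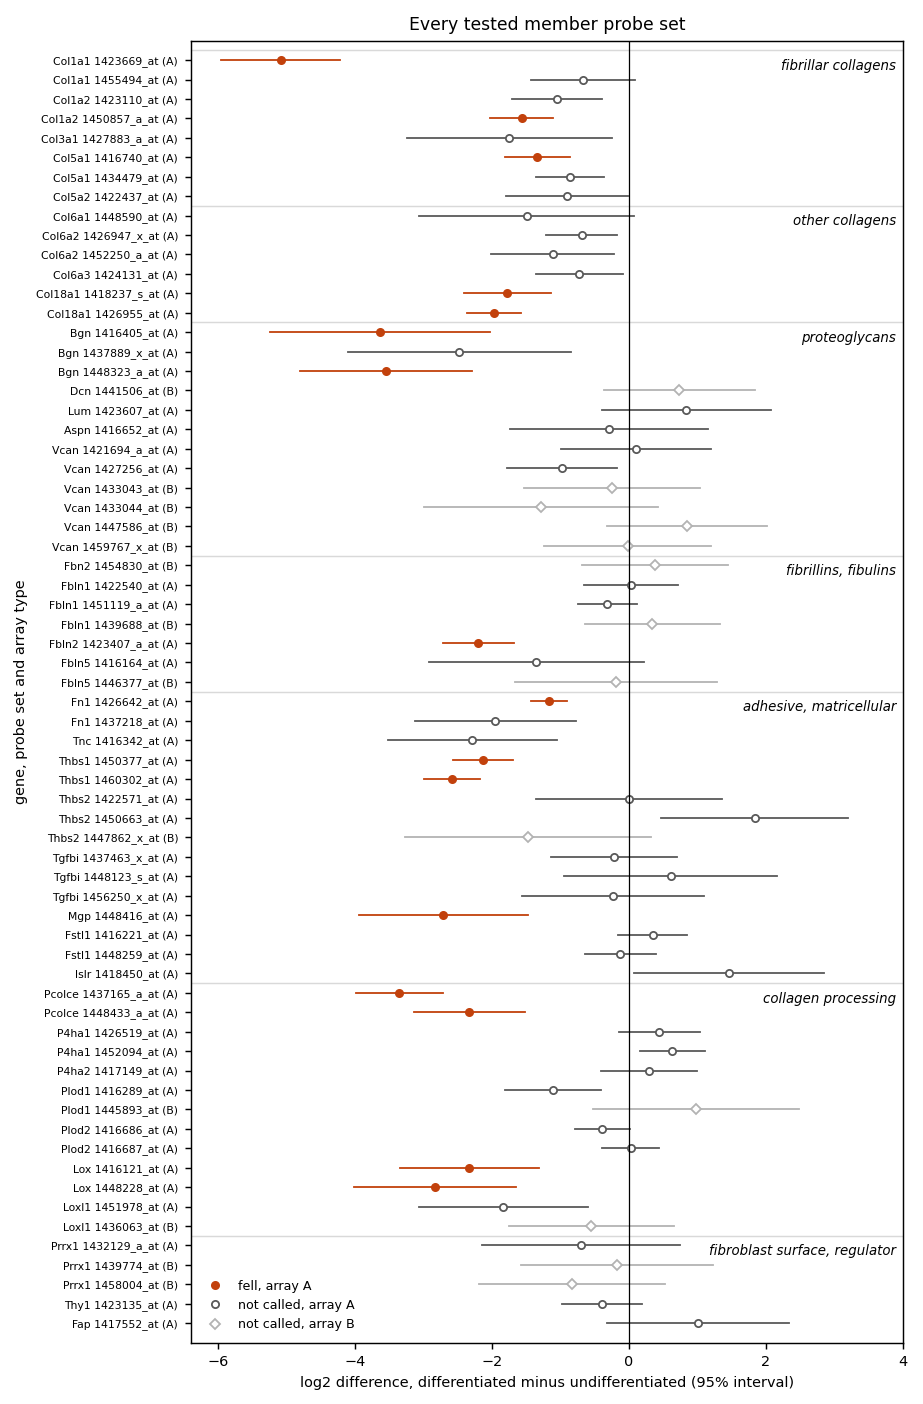
Log2 difference, differentiated minus undifferentiated, with its 95% interval for the 66 member probe sets tested, grouped by role. Filled orange circles fell on array A, open circles were not called on array A and grey diamonds were not called on array B. All filled points lie left of 0, and the intervals of array B all cross it.

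Of 7 tested genes that process and join collagen, 2 fell. Pcolce encodes the enhancer of the enzyme that removes the C-propeptide of procollagen. On probe set 1437165_a_at it had 6.50, 7.20 and 6.55 in differentiated RNAs, against 9.97, 10.11 and 10.22 in undifferentiated RNAs, a difference of -3.35 ± 0.29 (SE) or 10.2-fold lower (limma adjusted p = 0.000459). On 1448433_a_at it had 6.70, 7.64 and 6.40 in differentiated RNAs, against 9.26, 9.33 and 9.14 in undifferentiated RNAs (difference -2.33 ± 0.37, adjusted p = 0.00705). No array of Pcolce was at the floor. Lox encodes lysyl oxidase, which starts the cross-links of collagen and elastin. On 1416121_at it had 6.0, 8.03 and 7.16 in differentiated RNAs, against 9.41, 9.10 and 9.68 in undifferentiated RNAs (difference -2.33 ± 0.46, adjusted p = 0.0222). On 1448228_at it had 5.89, 5.00 and 5.83 in differentiated RNAs, against 7.63, 8.98 and 8.63 in undifferentiated RNAs (difference -2.84 ± 0.54, adjusted p = 0.0176). Its relative Loxl1 had 5.52, 8.02 and 6.75 in differentiated RNAs, against 8.87, 8.51 and 8.41 in undifferentiated RNAs. The groups did not overlap, and the difference of -1.83 ± 0.56 (SE) did not pass (adjusted p = 0.125). Without D2 it was -2.46 and did (adjusted p = 0.0372), the only pass of Loxl1 among 18 alternative settings.

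The 4 member hydroxylases, which act inside the cell, had no call. Plod1, a lysyl hydroxylase, had 7.28, 8.22 and 8.23 in differentiated RNAs, against 9.16, 9.07 and 8.83 in undifferentiated RNAs, without overlap (difference -1.11 ± 0.32, adjusted p = 0.0986). Its array B probe set differed by 0.98 (adjusted p = 0.841), with U2 at 6.80 below the rest. Plod2, another lysyl hydroxylase, differed by 0.03 and -0.39. The prolyl hydroxylase subunit P4ha1 differed by 0.63 ± 0.22 (SE, adjusted p = 0.169), with the 3 differentiated values above, and by 0.45 on its other probe set. P4ha2 differed by 0.29. The 3 genes used as marks of fibroblasts were not called either. Thy1, a surface glycoprotein, differed by -0.39 (adjusted p = 0.545), and Prrx1, a homeobox gene of mesenchyme, by -0.70 (adjusted p = 0.685). Fap, a surface protease of activated fibroblasts, had 7.27, 6.85 and 6.59 in differentiated RNAs, against 5.58, 6.55 and 5.56 in undifferentiated RNAs (difference 1.0, adjusted p = 0.48).

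By gene, with the brightest probe set standing for each and array A preferred, 9 of 36 members fell and 0 rose, which is 25% against 2.08% of all 16461 genes called, 1.16% that fell and 0.923% that rose. Of the 36 differences 27 were below 0 and 9 above, against 49.1% of all genes below 0. Their median was -0.79, against 0.01 over all genes. Counting any probe set, 11 of 36 fell, against 1.37% of all genes. On array A, 40 of 53 member probe sets were below 0, against 48.4% of all array A probe sets. The differentiated values lay wholly above in 3 of the 53, against 11.0% of all probe sets. On array B they lay wholly below in 0 of 13 and wholly above in 1, against 5.32% and 5.96% of all probe sets. An unadjusted p under 0.05 was reached by 32 of the 53, of which 29 were below 0, against 15.8% of all. Of the 66 tested probe sets 7 passed the limit on mean signal only through the undifferentiated RNAs, with 3 called among them (Col1a1 1423669_at, Bgn 1448323_a_at and Lox 1448228_at). The rest of the 7 were Fn1 1437218_at, Bgn 1437889_x_at, Fbln5 1416164_at and Vcan 1433044_at. Only through the differentiated RNAs, 2 passed (Tgfbi 1448123_s_at and Fap 1417552_at). All of these had to differ to be tested. A further 17 member probe sets were too dim for the test. Of 17 members with at least 2 tested probe sets on array A, 9 fell on at least 1, against 3.13% of all such genes, and 5 fell on 2 or more (Col18a1, Bgn, Thbs1, Pcolce and Lox), against 0.704%. For Bgn and Lox 1 of the 2 calls is a probe set that had to differ to be tested, which leaves 3 genes with 2 calls apart from these. In 12 of the 17 all probe sets had the same sign, a share that was not computed over all such genes.

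**Figure D3:**
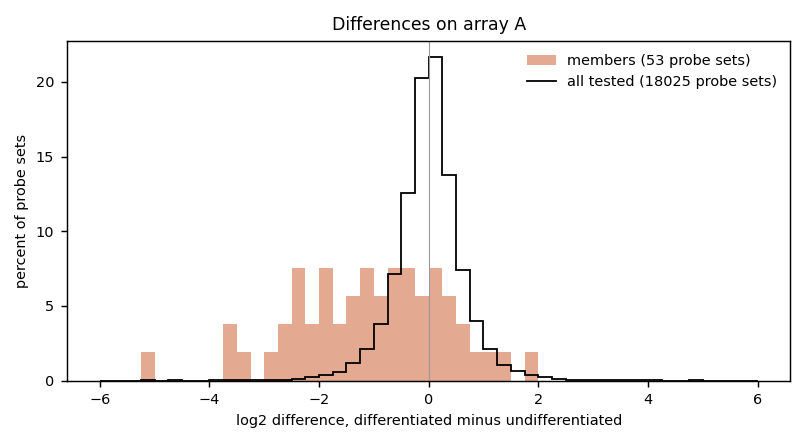
Share of probe sets (percent, vertical axis) by log2 difference, differentiated minus undifferentiated, in steps of 0.25 on array A. Orange bars are the 53 member probe sets and the black line all 18025 tested. The members spread from about -5 to 2, with 40 of 53 below 0, against 48.4% of all tested. The line peaks next to 0.

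The differentiated RNAs differed among themselves. Over the 36 representatives the median distance from the undifferentiated mean was -0.45, -0.71 and -0.89 for D1 to D3, against -0.05, 0.02 and 0.05 for U1 to U3. The values of U1 to U3 are drawn to 0 because these RNAs form the mean that was subtracted. Over the 16 called probe sets the median distance was -2.27, -2.23 and -2.54 in D1 to D3, low values that follow from the calls. D3 was the lowest differentiated RNA in 8 of the 16, D1 in 4 and D2 in 2, with 2 ties at the floor. The summed signal of the representatives was 17239, 15371 and 13397 in D1 to D3, against 29213, 31969 and 33963 in U1 to U3, so the groups did not overlap. Bright genes weigh most in this sum and called genes are part of it, so it is not a separate result. The SD was larger among differentiated than among undifferentiated RNAs in 13 of the 16 called probe sets and in 36 of the 53 tested on array A, which is 67.9%, against 59.5% of all array A probe sets.

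The arrays themselves differed in ways that touch these results. On array A the fluidics station divides exactly as the groups do, so the station and the state of the cells cannot be told apart. The array lot does not: U1 shares its lot with D1 to D3. Against U1 alone the direction of the 16 called probe sets was fixed in advance, since their groups did not overlap. The difference from U1 was -4.56 for Col1a1 1423669_at, -2.37 for Thbs1 1460302_at and -3.22 for Pcolce 1437165_a_at. It was -3.51 for Bgn 1416405_at and -1.11 for Fn1 1426642_at. A fit with the lot as a block takes its difference from this same contrast with U1, so it is not a separate check. With the lot as a block, 7 of the 16 passed: Col1a1 1423669_at, Col18a1 1426955_at, Fbln2, Fn1 1426642_at, both of Thbs1 and Pcolce 1437165_a_at. Bgn 1416405_at, Mgp and Lox 1416121_at did not pass there (limma adjusted p = 0.294, 0.297 and 0.25), nor without any single one of U1, U2 and U3 (adjusted p = 0.0596 to 0.0963, 0.0757 to 0.142 and 0.0639 to 0.12). Some calls rested on other single RNAs: Mgp had an adjusted p of 0.0569 without D2, Lox 1416121_at 0.0635 without D3, Lox 1448228_at 0.15 without U2 and 0.132 without U3, Pcolce 1448433_a_at 0.0545 without U2, and Col5a1 1416740_at 0.0569 without U3. D1 had the lowest correlation with the other arrays on A (median r = 0.864), and its log2 ratio of 3' to 5' actin signal, a sign of RNA integrity, was 0.70, against 0.15 and 0.17 in D2 and D3 and 0.13 to 0.31 in U1 to U3. On array B, U2 stood apart (median r = 0.698, against 0.813 to 0.85 for the other 5 arrays), and the actin ratio was 0.68 in D1 and 0.55 in U1, against 0.01 to 0.32 in the rest. Without U2, 0 member probe sets passed on array B. The part of these differences in the results was not tested.

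**Figure D4:**
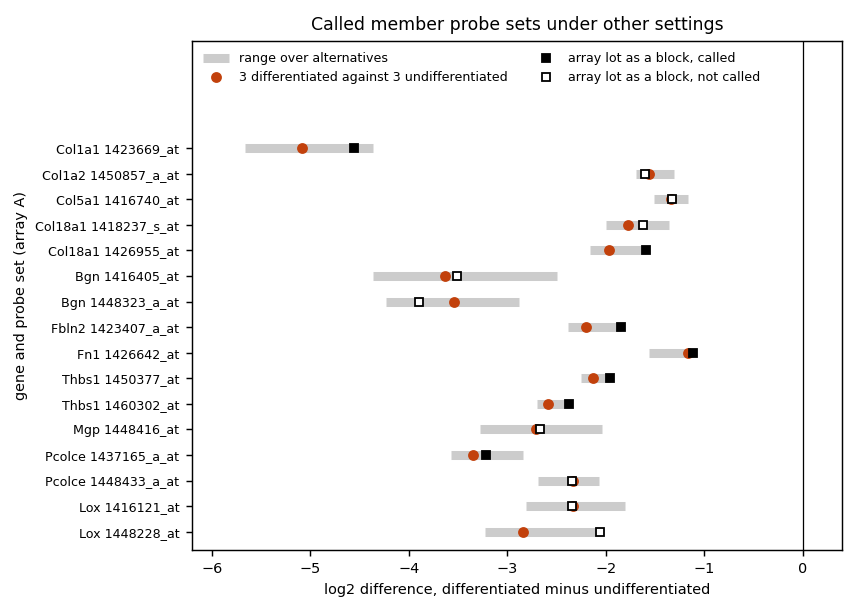
Log2 difference, differentiated minus undifferentiated, of the 16 called probe sets on array A. Orange dots are the values reported, grey bars their range over the alternative settings, and squares the value with array lot as a block, filled where it passed and open where it did not. Every bar stays left of 0, and 7 squares are filled.

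Other genes of the same pathway were counted from lists chosen with earlier results of the data known. Of 12 other interstitial collagens 0 passed in limma (median -0.12), with 1 at an unadjusted p under 0.05. Of 30 other matrix proteins 2 fell and 0 rose (median -0.07). Ecm1, a secreted matrix glycoprotein, differed by -1.32 ± 0.30 (SE, adjusted p = 0.0425), and Ltbp4, a latent TGF-beta binding protein, by -0.81 ± 0.17 (SE, adjusted p = 0.0336). Of 18 other collagen-processing genes 3 fell and 0 rose (median -0.39). Pcolce2, the paralog of Pcolce, was 5.00, 7.06 and 6.95 in differentiated RNAs, against 8.34, 8.82 and 9.10 in undifferentiated RNAs (difference -2.42 ± 0.56, adjusted p = 0.0456). Crtap, part of the prolyl 3-hydroxylase complex, differed by -1.37 ± 0.19 (SE, adjusted p = 0.00405), and Plod3, a lysyl hydroxylase with glycosyltransferase activity, by -0.77 ± 0.15 (SE, adjusted p = 0.0229). Of 16 TGF-beta ligands and regulators of matrix genes 0 passed in limma (median -0.02), with 3 at an unadjusted p under 0.05. Together with the fibroblast markers, which hold 8 of the calls, 13 of 101 such genes were called, all lower, which is 12.9% against 2.08% of all genes. Other settings did give calls that rose: 2 without U1, 2 with the mean over a gene's probe sets and 1 without the intensity trend.

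Of 26 tested markers of fibroblasts and of feeder layers, 8 fell and 0 rose, against 2.08% of all genes called. Over the 26 the median difference was -0.94, with 17 below 0, against 49.1% of all genes. Their summed signal was 12188 to 13878 in differentiated RNAs, against 26090 to 27424 in undifferentiated RNAs. S100a4, a calcium-binding protein of fibroblasts, had 5.22, 7.13 and 6.53 in differentiated RNAs, against 10.33, 10.23 and 9.83 in undifferentiated RNAs (difference -3.83 ± 0.45, limma adjusted p = 0.00136). Tagln, a smooth-muscle actin-binding protein, had 8.57, 9.01 and 9.0 in differentiated RNAs, against 11.75, 11.44 and 11.16 in undifferentiated RNAs (difference -2.59 ± 0.20, adjusted p = 0.000248). Timp1, an inhibitor of matrix proteases, differed by -1.97 ± 0.18 (SE, adjusted p = 0.000459). The other 5 that fell were Timp2, Ccn2, Ccn1, Acta2 and Vim, named beyond the 3 largest so that all 8 are given. The 18 that were not called include Dpt, dermatopontin, which had the highest difference of the list at 2.29 ± 0.58 (SE, adjusted p = 0.0648). Dpt passed the limit on mean signal only through the differentiated RNAs, so it had to differ to be tested. Dpep1 (0.95), Cxcl12 (0.81), Snai2 (0.80), Cd34 (0.68), Twist2 (0.30), Tcf21 (0.13), Ddr2 (0.05) and Mfap5 (0.03) were also above 0 and not called. The others not called were below 0, with Pdgfra among them at -1.01 (adjusted p = 0.568). Among the markers not tested were Pdgfrb, Twist1 and Cd248. The part of fibroblasts in the members' difference was not tested.

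Other cell types gave these values. Of 14 endoderm genes, which include makers of basement membrane, 5 rose and 1 fell, against 0.923% and 1.16% of all genes. Their summed signal was 9512 to 11384 in differentiated RNAs, against 8657 to 9298 in undifferentiated RNAs. The largest were Ttr, a transport protein of visceral endoderm, at 4.24 ± 0.46 (SE, adjusted p = 0.000908), the basement membrane linker Nid1 at -1.57 ± 0.32 (SE, adjusted p = 0.0277) and the endoderm factor Gata6 at 1.51 ± 0.32 (SE, adjusted p = 0.0349). Sox17, Dab2 and Col4a1 also rose. Among the collagen IV and laminin genes of this list, only Col4a1 was called, at 0.996 (adjusted p = 0.0141). Col4a2 (0.26), Lamc1 (-0.606), Lamb1 (-0.595) and Lama1 (-0.10) were not. The basement membrane genes therefore showed no common rise. Of 10 pluripotency genes 2 fell, Tdgf1 at -2.04 (adjusted p = 0.00405) and Klf4 at -1.64 (adjusted p = 0.00934), and 0 rose. All 10 were below 0, against 49.1% of all genes, with a median of -0.73 and 6 at an unadjusted p under 0.05. Their summed signal was 21472 to 46307 in differentiated RNAs, against 57869 to 67474 in undifferentiated RNAs, again without overlap. Pou5f1, Nanog and Sox2, which mark the undifferentiated state, differed by -0.27 (adjusted p = 0.352), -0.56 (adjusted p = 0.43) and -0.03 (adjusted p = 0.961). Of 13 mesoderm and muscle genes 1 fell, the skeletal actin Acta1 at -2.81 (adjusted p = 0.0272), and 0 rose. Acta1 passed the limit on mean signal only through the undifferentiated RNAs, so it had to differ to be tested. Of 10 cartilage and bone genes 0 passed in limma, with 1 at an unadjusted p under 0.05, and of 8 blood and macrophage genes 0 passed, with 0 at an unadjusted p under 0.05. The markers Afp, T, Runx2, Bglap and Hbb-bh1 of these lists were not tested.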

How the data were processed

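The authors deposited MAS5 signal intensity on a linear scale, 1 value per probe set and array. MAS5, named per the submitters' processing notes, summarises the paired probes of each probe set. The version, the scaling target and any test were not given in the sources used here. Every deposited array had a 2% trimmed mean of 1500.1 to 1500.5, so total RNA per cell is not seen. Array lot, fluidics station and scan day came from the deposited experiment settings, where the file of each array names the RNA of its title. No detection calls were used here, and the number of arrays limits the precision.

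Each of the 12 arrays was brought to a trimmed mean of 500, signals below 32 were raised to 32, and log2 was taken, which understates changes of dim genes. Probe sets whose log2 signal averaged under 6 (4601 on array A, 2167 on array B) and 64 controls per array type were not tested. Differences were tested two-sided with limma 3.58.1 (lmFit, eBayes with trend = TRUE, so that the variance prior follows the intensity) under R 4.3.3, each array type alone, with Benjamini-Hochberg adjustment over its probe sets and a threshold of 0.05. Folds are log2 differences taken back to the linear scale. For counts by gene, array A was preferred over array B and the probe set brightest on average over the 6 arrays was used. The fit was tested on simulated data. On array A 20380 probe sets had 1 gene symbol, 691 several and 1555 none, and on array B 14661, 245 and 7605. All 37 members with a probe set matched the RefSeq gene table by gene ID.

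The members, the lists and their tests were chosen with earlier results of these data known, so no test over a list was run. All members are named. Those called, or with a difference of at least 1 by gene, are given in every RNA, and each other list gives its 3 largest called genes. Replicate numbers were taken from the titles. Same-numbered RNAs had correlated deviations of 0.16, 0.01 and 0.07 on array A and 0.18, 0.10 and 0.12 on array B, so the numbers were not taken as pairs. Alternatives covered normalization, floor, filter, variance trend, adjustment, blocks, probe set kind and each RNA left out.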

Additional observations from a re-analysis of the deposited data

How the results depend on the processing

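The members' median difference by gene stayed between -0.94 and -0.68 in every alternative run, 0 member probe sets of array B passed in any, and 0 member probe sets rose in any. The 16 array A probe sets that fell became 9 with a floor of 64, 8 with no filter on mean signal, 6 without the intensity trend and 7 with array lot (array A) or station (array B) as a block. The 9 members called by gene became 4 without the trend and 5 with that block, and the 13 other pathway genes became 5 under each of these 4 settings. Without any 1 RNA the fits gave 11 to 19 probe sets, 6 to 12 members, 9 to 13 other genes and a median of -0.92 to -0.68. With the replicate number as a block (replicate block) the counts were 17 probe sets, 10 members and 15 other genes, with 0 on array B and a median of -0.79. On array B, not on array A, each RNA correlated best with its own number. Over all of array A, 518 probe sets were called, against 194 with a floor of 64 or no filter, 307 with median centring, 319 adjusted over both array types, 97 without the trend, 106 with the lot as a block, 313 without D3, and 214 and 190 without U2 and U3. Of the 16, 6 passed in every alternative: Col1a1 1423669_at, Col18a1 1426955_at, Fbln2, both of Thbs1 and Pcolce 1437165_a_at. Col1a2 passed in all but the fits without the trend and with the block (adjusted p = 0.0564 and 0.0626). Signals at the floor have no order, so folds of Col1a1, Bgn, Mgp and Lox depend on it. Why array B gave fewer calls than array A was not tested.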
